A study of Mus musculus with 21 samples.

Results

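The 39 genes described here encode proteins of the lysosome and of autophagy. They comprise 10 lysosomal peptidases, 5 glycosidases, 5 proteins that handle lipids, 5 membrane proteins, 4 subunits or partners of the proton pump, the transcription factor Tfeb and 9 components of autophagy. They were taken as a fixed list because cells that take up particles deliver them to lysosomes, and each gene was read from the probe with the brightest mean liver signal. All 39 were among the 16535 named genes on the array, and all 39 passed the filter on dim probes, as did 11239 named genes in all. The samples were livers from 21 female C57BL/6 mice, hybridised to arrays with 2 colours, with the liver RNA in the red dye and a universal reference RNA from 11 mouse cell lines in the green dye. Mice had been bought at 5 to 7 weeks of age and acclimatised for 1 to 3 weeks. Each then received 1 instillation into the trachea, either 162 µg of nanosized titanium dioxide (TiO2) in vehicle or the vehicle alone. The vehicle was saline with cell-free lung lavage fluid from untreated mice, so all groups received it. The groups were TiO2 at day 1 (n = 6), control at day 1 (n = 5), TiO2 at day 28 (n = 6) and control at day 28 (n = 4), each mouse on 1 array. Mice at day 28 were also older than mice at day 1, so time after instillation and age cannot be told apart between the days.

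Lysosomes are acidic organelles in which hydrolases break down material brought in by endocytosis, by phagocytosis or by autophagy. In the liver, Kupffer cells, the resident macrophages, take up particles from blood, and hepatocytes have a high rate of autophagy. TFEB is a transcription factor that, when released from inhibition by the kinase complex mTORC1, enters the nucleus and raises many genes of this list together. The comparisons below ask whether TiO2 in the airways was followed by a change of these transcripts in the liver, and how they differed between the days.

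The samples carried a liver profile although the extraction protocol of the labels names lung. All 14 hepatocyte markers with a probe were well above background on every array, against 3 to 11 of 13 lung markers. The number of probes above background for the liver RNA ranged between 12985 and 26616 per array, with 20879 or more on the arrays of scan day 2. The headers give 3 scan days, and each held arrays of all 4 groups, but in uneven numbers. Replicate 1 was the only array of scan day 1 in each control group. Replicate 4 was the only array of scan day 3 in control mice at day 28. The TiO2 groups held more than 1 array on every scan day. Leaving out 1 of these controls also takes a scan day out of its group, so mouse and scan day cannot be told apart there. Of 17624 features tested (named genes and unnamed probes), limma called 0 for TiO2 at either day at an adjusted p under 0.05. Counts of members that passed a test are given both without and with scan day as a term in the model.

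Levels are log2 ratios of liver to reference RNA, so 0 means an equal signal in both, and a ratio compares 1 gene between 2 RNAs rather than 1 gene with another. The member list lay slightly above the reference, with a median per array of -0.05 to 0.34 in TiO2 mice at day 1 and 0.14 to 0.26 in control mice at day 1. At day 28 it ranged between 0.01 and 0.31 in TiO2 mice and between 0.08 and 0.25 in control mice. Over all features the median per array lay between -0.00 and 0.08. The group means of 24 members lay above the reference in 3 groups, and those of 23 did so in control mice at day 28. For 37 of the 39 members the 4 group means lay within 0.5 of each other.

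**Figure D1:**
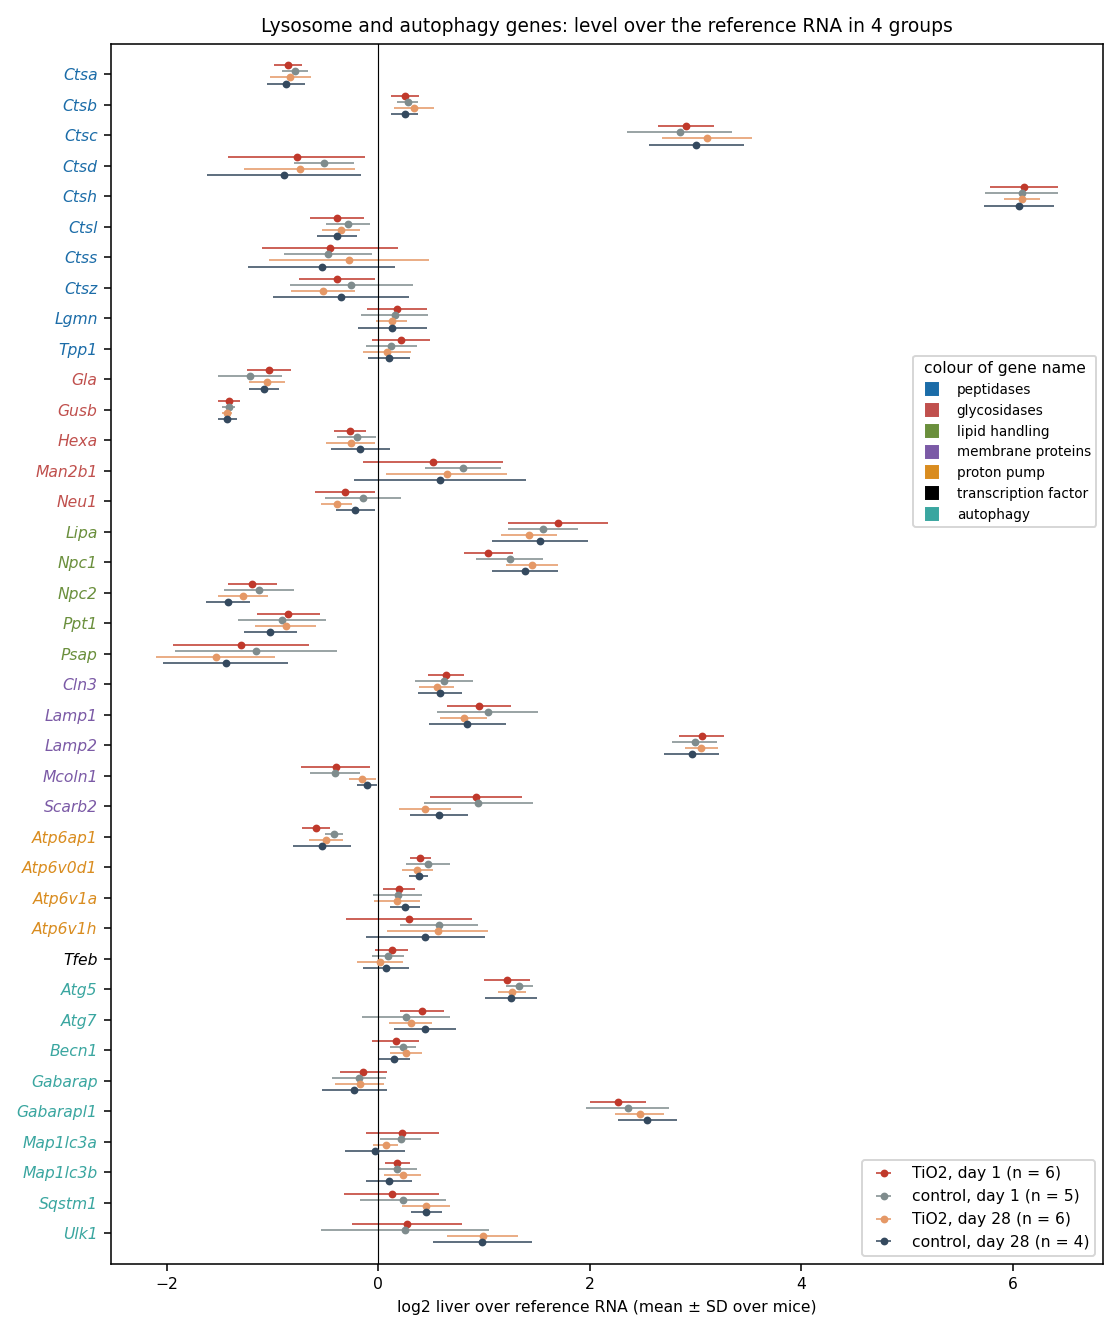
Level of each of the 39 genes as log2 liver over reference RNA (horizontal axis), as mean ± SD over the mice of each group, with gene names coloured by role. Ctsh stands far above the others, near 6, and within a gene the 4 groups lie close together.

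Among the peptidases, Ctsh, which encodes the aminopeptidase cathepsin H, had the highest ratio of the list, 6.09 ± 0.27 (SD, n = 21 arrays) or 68.0-fold over the reference. Ctsc, the dipeptidase that activates granule proteases, followed with 2.97 ± 0.39. Ctsb and Ctsd, the main cysteine and aspartic proteases of the lysosome, had 0.28 ± 0.14 and -0.72 ± 0.53. Ctss, a protease of antigen-presenting cells, had -0.43 ± 0.60. Ctsa, Ctsl, Ctsz, Lgmn and Tpp1 lay between -0.83 and 0.15.

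The glycosidases were mostly below the reference. Gusb, which encodes beta-glucuronidase, had the lowest ratio of all members, -1.42 ± 0.07 (SD, n = 21), and also the smallest SD of the 39. Gla, the alpha-galactosidase A gene, had -1.09 ± 0.21, Neu1 (sialidase) -0.28 ± 0.26 and Hexa (a beta-hexosaminidase subunit) -0.23 ± 0.20. Man2b1, the lysosomal alpha-mannosidase, was above the reference at 0.63 ± 0.57. Of the lipid group, Lipa, the acid lipase that frees cholesterol and fatty acids from lipoproteins, had 1.55 ± 0.37 and Npc1, which exports cholesterol from the lysosome, 1.27 ± 0.30. Its soluble partner Npc2 (-1.24 ± 0.26, with a value on all but 1 array), Psap (-1.36 ± 0.61), the precursor of the saposins, and Ppt1 (-0.90 ± 0.30), a thioesterase, lay below the reference.

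Lamp2, a membrane protein needed for fusion with autophagosomes, had 3.02 ± 0.20, against 0.91 ± 0.33 for its relative Lamp1 (SD, n = 21 each). Scarb2, an abundant protein of the lysosomal membrane, had 0.72 ± 0.42, Cln3 0.60 ± 0.19 and Mcoln1, a calcium channel of the lysosomal membrane, -0.28 ± 0.25. The 4 proton pump genes ranged between -0.51 (Atp6ap1) and 0.47 (Atp6v1h). In the autophagy group, Gabarapl1, which encodes a protein attached to autophagosome membranes, had 2.40 ± 0.29 and Atg5, part of the machinery that attaches such proteins, 1.27 ± 0.18. Ulk1, the kinase that starts autophagy, had 0.61 ± 0.62, the widest spread of all 39. Sqstm1, the cargo receptor p62, had 0.31 ± 0.35 and Map1lc3b, the LC3B gene, 0.18 ± 0.16.

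One day after instillation, no member of the list differed between TiO2 and control livers beyond the spread between mice. In limma 0 of 39 members passed the adjusted threshold (0% of all features did), and 0 of 39 reached an unadjusted p under 0.05, against 1.72% of all features. TiO2 minus control was above 0 in 19 of 39 members, with a median of -0.02, against a median of -0.01 over all features, of which 47.8% were above 0. The differences ran between -0.29 for Man2b1 and 0.18 for Gla, and their median SE was 0.15. Scan day held 82.8% of the variance of Man2b1. Its difference ran between -0.44 (without control replicate 1) and -0.05 (without TiO2 replicate 2) over 39 settings. These settings include leaving out a mouse or a scan day, and both ends came from leaving out 1 mouse of scan day 1. With scan day in the model the count at an unadjusted p under 0.05 was again 0, against 4.09% of all features. The 95% interval of the difference lay inside ±1 on the log2 scale for all 39 members, and inside ±0.5 for 28 of them (34 with scan day in the model).

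The members with the smallest p at day 1 were Atp6ap1, Gla and Npc1. Atp6ap1, an accessory protein of the proton pump, had -0.79 at the lowest, -0.57 at the median and -0.42 at the highest in 6 TiO2 mice, against -0.46, -0.37, -0.29, -0.47 and -0.49 in the 5 control mice. The groups overlapped, since 2 of 6 TiO2 mice lay within the range of the controls. Its difference was -0.17 ± 0.11 (SE) with an adjusted p of 1 in limma. Gla had -1.36, -0.96 and -0.83 as the lowest, median and highest TiO2 values, against -0.71, -1.47, -1.36, -1.37 and -1.17 in controls, and the control with -0.71 exceeded every TiO2 mouse. The Gla difference was 0.18 ± 0.13, with an adjusted p of 1, and its other probe, which did not pass the filter, gave -0.14. Without that control, replicate 1 and the only control of scan day 1, the Gla difference was 0.31, and without control replicate 2 it was 0.12. The Gla liver signal was well above background on 5 of 6 TiO2 and 3 of 5 control arrays at day 1. Npc1 was at 0.65, 1.05 and 1.36 in TiO2 mice and at 1.38, 1.64, 1.17, 1.24 and 0.78 in controls, a difference of -0.20 ± 0.16 with an adjusted p of 1. Leaving out 1 mouse gave Npc1 differences of -0.32 (without control replicate 5) to -0.10 (without control replicate 2).

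Other members by role gave differences of the same small size at day 1. Among peptidases 5 of 10 were above 0, with Tpp1 at 0.09 ± 0.14 and Ctsd at -0.26 ± 0.31. The second Tpp1 probe, which also passed the filter, gave -0.23. Ctsd had a lowest, median and highest value of -1.96, -0.58 and -0.19 in TiO2 mice, against -1.01, -0.33, -0.35, -0.40 and -0.46 in controls. The lowest Ctsd values of both groups came from scan day 1, and the model with scan day gave -0.13 ± 0.16. Without TiO2 replicate 2 the Ctsd difference was -0.03. Ctsb had 0.01, 0.30 and 0.37 in TiO2 mice, against 0.28, 0.11, 0.33, 0.33 and 0.35 in controls, so the groups overlapped. Among glycosidases 2 of 5 were above 0. Neu1 had -0.55, -0.41 and 0.25 as lowest, median and highest in TiO2 mice, against 0.38, 0.02, -0.56, -0.27 and -0.30 in controls, a difference of -0.17 ± 0.15, or -0.04 without control replicate 1 and -0.28 without TiO2 replicate 2. Of the lipid genes 2 of 5 were above 0. Lipa had 1.09, 1.72 and 2.24 in TiO2 mice, against 1.31, 1.19, 1.53, 1.74 and 2.01 in controls, a difference of 0.14 ± 0.22, and the groups overlapped. Leaving out TiO2 replicate 4 gave 0.03 for Lipa, and leaving out TiO2 replicate 5 gave 0.26. Of the membrane genes 3 of 5 were above 0. Lamp1 had 0.66, 0.85 and 1.32 in TiO2 mice, against 1.85, 0.75, 0.66, 0.94 and 0.97 in controls, where 1 control stood above all TiO2 mice and the difference was -0.08 ± 0.20, or 0.12 without that control, replicate 1. Of the proton pump genes 1 of 4 was above 0. For the autophagy group, 5 of 9 were above 0. Atg7, the enzyme that activates LC3 for attachment, had 0.07, 0.45 and 0.69 in TiO2 mice, against -0.41, 0.17, 0.63, 0.54 and 0.39 in controls. Its difference of 0.15 ± 0.16 was -0.02 without the lowest control, replicate 1. The Atg7 liver signal was well above background on 6 of 6 TiO2 and 4 of 5 control arrays at day 1. Map1lc3b had -0.02, 0.17 and 0.31 in TiO2 mice, against 0.20, 0.48, 0.02, 0.13 and 0.05 in controls, a difference of 0.00 ± 0.11. Sqstm1 had -0.65, 0.22 and 0.69 in TiO2 mice, against -0.41, 0.69, 0.21, 0.42 and 0.26 in controls, a difference of -0.11 ± 0.20, or 0.05 without TiO2 replicate 2. The groups overlapped for each of these genes, and Ulk1 stood at 0.02 ± 0.30.

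**Figure D2:**
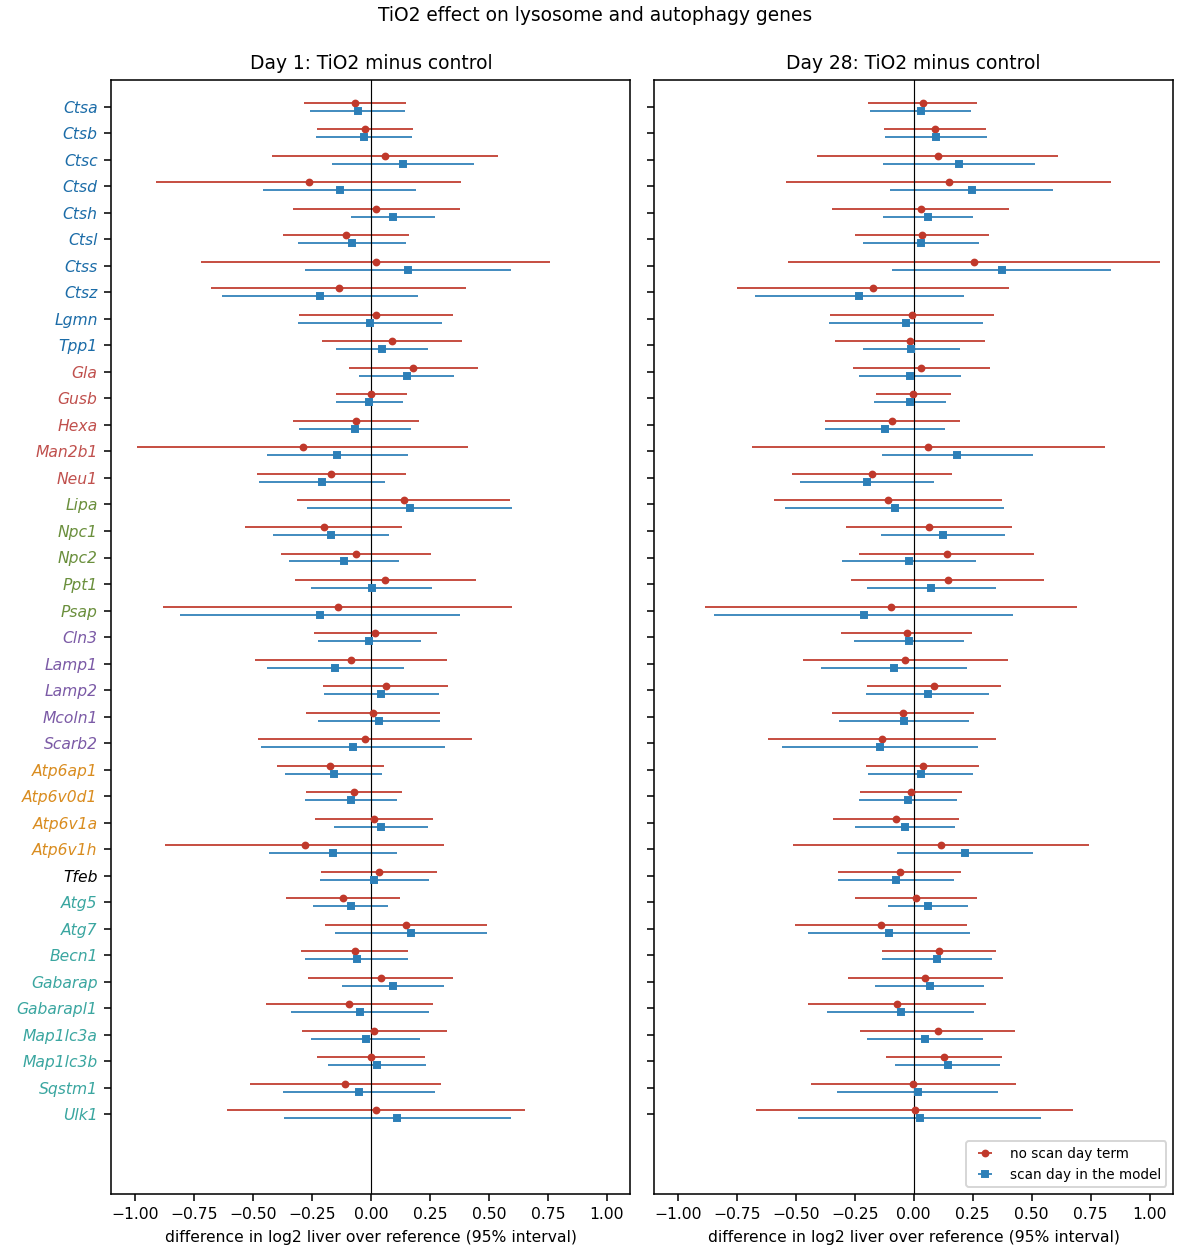
Difference between TiO2 and control livers in log2 liver over reference, with its 95% interval, for the 39 genes at day 1 (left) and day 28 (right). Red circles are the model of group means and blue squares the model with scan day, and every interval spans 0.

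At day 28 the list again showed no difference between TiO2 and control livers that passed the test. Of 39 members, 0 passed the adjusted threshold in limma (0% of all features) and 0 reached an unadjusted p under 0.05, against 0.925% of all features. With scan day in the model these counts stayed at 0, against 3.1% of features at the unadjusted level. TiO2 minus control was above 0 in 21 of 39, with a median of 0.01, against 0.00 over all features, of which 50.8% were above 0. The range was -0.18 (Neu1) to 0.26 (Ctss), with a median SE of 0.16. The 95% interval lay inside ±1 for 38 of 39 members, the exception being Ctss, whose upper bound was 1.05, and inside ±0.5 for 25 (29 with scan day in the model).

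The Neu1 difference was below 0 at both days, without passing a test at either. At day 28 it had -0.61, -0.40 and -0.21 as lowest, median and highest TiO2 values, against -0.02, -0.22, -0.46 and -0.17 in the 4 controls, and 4 of 6 TiO2 mice lay within the range of the controls. The difference was -0.18 ± 0.16 (SE) at day 28 with an adjusted p of 1 in limma, or -0.11 without control replicate 1. Averaged over both days, a contrast added after the data were seen, it was -0.17 ± 0.11, and -0.20 ± 0.09 with scan day in the model, with an adjusted p of 1 in limma for each. In that average 0 of 39 members were at an unadjusted p under 0.05, against 1.71% of features, and with scan day in the model 1 was (Neu1), against 4.28%. The second Neu1 probe gave 0.02 at day 1 and -0.00 at day 28.

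On the higher side at day 28, Map1lc3b had -0.11, 0.30 and 0.35 as lowest, median and highest TiO2 values, against -0.19, 0.09, 0.18 and 0.33 in controls, a difference of 0.13 ± 0.12, or 0.03 without control replicate 1. Becn1, a subunit of the lipid kinase that starts autophagosome formation, had 0.01, 0.27 and 0.47 in TiO2 mice, against 0.26, 0.30, 0.02 and 0.04 in controls, a difference of 0.11 ± 0.12. Ctsb had 0.06, 0.36 and 0.59 in TiO2 mice, against 0.14, 0.42, 0.26 and 0.17 in controls, a difference of 0.09 ± 0.10. Leaving out 1 mouse gave 0.06 to 0.16 for Becn1 (without control replicates 3 and 2) and 0.04 to 0.15 for Ctsb (without TiO2 replicate 5 and control replicate 2). The groups overlapped for all of these genes. Ctsd had -1.71, -0.52 and -0.35 in TiO2 mice, against -1.98, -0.48, -0.50 and -0.62 in controls, a difference of 0.15 ± 0.33, with the lowest value of each group on scan day 1. Without control replicate 1, the only control of scan day 1 at day 28, the Ctsd difference was -0.21. On the lower side, Atg7 had 0.05, 0.35 and 0.52 in TiO2 mice, against 0.56, 0.55, 0.64 and 0.0087 in controls, where 3 of 4 controls lay above every TiO2 mouse and 1 lay below. Its difference was -0.14 ± 0.18, or -0.28 without that last control, replicate 4, and -0.07 without control replicate 3. The Atg7 liver signal was well above background on 6 of 6 TiO2 and 3 of 4 control arrays at day 28. Hexa had -0.58, -0.29 and 0.13 in TiO2 mice, against 0.08, -0.21, -0.54 and -0.0042 in controls, a difference of -0.09 ± 0.14, or -0.0064 without control replicate 1 and -0.21 without control replicate 3. Lamp1 had 0.49, 0.82 and 1.17 in TiO2 mice, against 1.38, 0.73, 0.73 and 0.54 in controls. Both genes overlapped between the groups. Sqstm1 had 0.09, 0.46 and 0.74 in TiO2 mice, against 0.48, 0.27, 0.44 and 0.62 in controls, and its difference of -0.00 ± 0.21 was close to the 0.01 ± 0.32 of Ulk1. Adjusted p-values of all 39 members were 1 in limma at both days. By role, 7 of 10 peptidases, 2 of 5 glycosidases, 3 of 5 lipid genes, 1 of 5 membrane genes, 2 of 4 proton pump genes and 6 of 9 autophagy genes were above 0. The TiO2 effect at day 28 minus that at day 1, tested as an interaction, called 0 of 39 members (0% of features), with 0 at an unadjusted p under 0.05 against 0.76% of features, or 2.89% with scan day in the model, where 0 members were. The largest such value was 0.41 ± 0.46 for Ctsd, of whose variance scan day held 74.3%. Over 38 settings, which include leaving out a mouse or a scan day, this value ran between 0.05 and 0.71. The lower end was without control day 28 replicate 1, and the upper end without the arrays of scan day 2.

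Tfeb had a liver signal well above background on 9 of 21 arrays, the fewest of all members, with 2 of 6 TiO2 and 1 of 5 control arrays at day 1 and 3 of 6 TiO2 and 3 of 4 control arrays at day 28. It had -0.16, 0.16 and 0.28 as lowest, median and highest in TiO2 mice at day 1, against 0.18, 0.27, -0.04, 0.14 and -0.10 in controls. At day 28 it had -0.14, -0.06 and 0.44 in TiO2 mice and 0.34, -0.09, -0.11 and 0.16 in controls. The groups overlapped at both days, with differences of 0.03 ± 0.12 at day 1 and -0.06 ± 0.13 at day 28. TFEB acts after its transcript is made, by moving into the nucleus, which arrays do not measure.

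The DNA word that TFEB and its relatives recognise was looked for in the promoters of the members. The words searched were the core CACGTG and the longer TCACGTGA, which contains it, and each reads the same on both strands. RefSeq windows of GRCm38.p6, covering 250 bases before to 50 bases after a gene's start, were at hand for 33 of the 39 members. The core was present in 12 of these 33 (36.4%), against 8.09% of 27025 genes in the table. The longer word was present in 7 (21.2%), against 1.12% of all genes. One site of each of these 7 genes is shown (Ctsa and Gla held 2 each), with the longer word in capitals, because these are the longest matches among the members. Sequences run 5′ to 3′ on the strand of the gene.
Mcoln1 (chr8:3500462-3500491, plus strand): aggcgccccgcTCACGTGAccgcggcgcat
Cln3 (chr7:126583340-126583369, minus strand): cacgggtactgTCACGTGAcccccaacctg
Ctsa (chr2:164833749-164833778, plus strand): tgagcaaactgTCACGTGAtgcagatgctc
Ctsd (chr7:142387908-142387937, minus strand): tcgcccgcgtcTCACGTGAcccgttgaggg
Gla (chrX:134601182-134601211, minus strand): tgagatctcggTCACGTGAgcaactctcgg
Atp6v0d1 (chr8:105566050-105566079, minus strand): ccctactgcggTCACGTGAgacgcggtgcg
Atp6v1a (chr16:44139373-44139402, minus strand): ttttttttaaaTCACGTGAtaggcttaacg
A match is a description of letters and not of binding, by TFEB or by any other factor. Why the words were more frequent among the members was not tested.

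The TiO2 differences of members with and without the core both centred near 0. At day 1 the median difference was -0.03 over the 12 with it (6 above 0) and 0.00 over the 21 without it (11 above 0). At day 28 it was -0.01 over the 12 (5 above 0) and -0.00 over the 21 (10 above 0). The 7 genes printed above lay between -0.26 (Ctsd) and 0.18 (Gla) at day 1, and between -0.07 (Atp6v1a) and 0.15 (Ctsd) at day 28. Lamp1 held the core 4 times in its window and differed by -0.08 ± 0.20 at day 1 and -0.03 ± 0.21 at day 28. The windows of Ulk1, Sqstm1, Scarb2 and Tfeb held neither word, which says nothing of TFEB at other places.

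Among other genes of the pathway, too, 0 passed the test for TiO2. Wider lists of 131 further genes covered hydrolases, membrane and sorting proteins, proton pump subunits, autophagy factors and regulators of mTORC1 and TFEB, and 115 of them were tested. At day 1, 55 of 115 were above 0 with a median of -0.01, 0 passed the adjusted threshold, and 2 were at an unadjusted p under 0.05 in limma, where 1.72% of all features were. With scan day in the model 2 of the 115 were so on the higher and 4 on the lower side, against 4.09% of features. The 2 genes without the scan day term were Atg16l1, a factor that places LC3 on membranes, at -0.36 ± 0.14, and Rb1cc1, a partner of ULK1, at -0.20 ± 0.09, both with an adjusted p of 1. At day 28, 63 of 115 were above 0 with a median of 0.02, 0 passed the adjusted threshold, and 1 was at an unadjusted p under 0.05, Rptor, the scaffold of mTORC1, at 0.27 ± 0.10, against 0.925% of features. With scan day in the model 4 were, against 3.1%. Of the hydrolases, Fuca1, a fucosidase, stood at -0.21 ± 0.11 at day 1 and -0.19 ± 0.11 at day 28. Dpp7, a dipeptidase, stood at 0.18 ± 0.12 at day 28. Of the membrane and sorting genes, Gnptg stood at 0.08 ± 0.08 and Vps35 at -0.13 ± 0.08 at day 1, and Abca2 at 0.21 ± 0.12 and Igf2r at -0.14 ± 0.12 at day 28. Of the pump genes, Atp6v0a2 stood at 0.17 ± 0.11 and Atp6v1b2 at -0.18 ± 0.11 at day 1, and Atp6v1d at 0.17 ± 0.09 and Atp6v1b2 at -0.11 ± 0.12 at day 28. Of the autophagy factors, Rubcn stood at 0.19 ± 0.18 at day 1, and Vamp8 at 0.17 ± 0.10 and Wdfy3 at -0.21 ± 0.16 at day 28. Of the regulators, Foxo1 stood at 0.30 ± 0.17 and Mtor at -0.18 ± 0.10 at day 1, and Ppargc1a at -0.33 ± 0.28 at day 28.

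Since lysosomal transcripts are plentiful in macrophages, macrophage markers are given beside these results. In whole liver, fewer cells of a type and less RNA per cell cannot be told apart. All 13 Kupffer cell markers were well above background on every array. Their mean log2 ratio per array ran between 2.52 and 3.88 in TiO2 mice and between 2.59 and 3.12 in control mice at day 1, and between 2.47 and 3.51 in TiO2 mice and between 2.65 and 3.24 in control mice at day 28. TiO2 minus control was above 0 for 10 of 13 at day 1 (median 0.11) and for 12 of 13 at day 28 (median 0.15). Over all features 47.8% were above 0 at day 1 and 50.8% at day 28. Of 10 monocyte and macrophage markers listed, 9 had a probe and 6 passed the filter and were tested. Of these, 6 of 6 were above 0 at both days (medians 0.29 and 0.20). Of those 2 lists, Folr2 (0.56 ± 0.25) and Cd14 (0.43 ± 0.17) at day 1 and Fcer1g (0.36 ± 0.16) at day 28 were at an unadjusted p under 0.05 in limma, and 0 passed the adjusted threshold at either day. Over all features 1.72% at day 1 and 0.925% at day 28 were at that unadjusted p. Under the model with scan day this held for 2 of 13 Kupffer markers at day 1 and 3 of 13 at day 28, and for 1 of 6 monocyte and macrophage markers at each day, against 4.09% and 3.1% of features. The average over both days was a contrast added after the data were seen. There 2 of 13 Kupffer and 2 of 6 monocyte and macrophage markers were at that unadjusted p, against 1.71% of features. With scan day in the model 4 of 13 and 3 of 6 were, against 4.28%, and 0 passed the adjusted threshold under either model. Ccr2, a receptor of recruited monocytes, was above background on 1 of 21 arrays, Cx3cr1 on 5 and Itgam on 2, and these genes were not tested. The part of these cells in the member values was not tested.

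The largest difference in the list lay between the days and not between treatments. Ulk1 had 0.43, 1.14, 0.84 and 1.53 in the 4 control mice at day 28, against -0.58, 1.29, -0.44, 0.78 and 0.20 in the 5 control mice at day 1. In TiO2 mice its lowest, median and highest values were 0.39, 1.08 and 1.36 at day 28, against -0.41, 0.22 and 1.08 at day 1. Values at day 28 were higher on the whole, but the days overlapped in both treatments, and 1 control at day 1 exceeded 3 of 4 controls at day 28. The difference, day 28 minus day 1, was 0.73 ± 0.34 (SE) or 1.66-fold in control mice and 0.71 ± 0.29 or 1.64-fold in TiO2 mice, with adjusted p-values of 1 in limma for each. These 2 comparisons share no array.

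Averaged over both treatments, a contrast added after the data were seen, Ulk1 was 0.72 ± 0.22 higher at day 28 (adjusted p = 0.344 in limma), and 0 members passed, as against 0.0908% of features. With scan day in the model it rose by 0.76 ± 0.17 (adjusted p = 0.0416 in limma), the only member called, as were 0.63% of all features. At an unadjusted p under 0.05 there were 4 members, against 6.45% of features, and with scan day in the model 6, against 13.1%. Within scan days 1, 2 and 3 the averaged difference was 1.01, 0.71 and 0.66. The second Ulk1 probe gave 0.42 for this average, 0.36 in control mice and 0.48 in TiO2 mice. The call held in 1 of 38 settings, that with scan day as a term, and with slide as a random block the adjusted p was 0.0688. Over these settings the difference ran between 0.54 and 0.85 and the adjusted p between 0.0416 and 0.822.

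In control mice alone, 10 of 39 members were higher at day 28, against 48.8% of features. There 1 of 39 members (Ulk1) was at an unadjusted p under 0.05 between the days, against 3.04% of features (2 with scan day in the model, Ulk1 and Mcoln1, against 7.6%), and 0 of 39 passed the adjusted threshold (0% of features). Mcoln1 had -0.19, -0.05, -0.18 and -0.0023 in control mice at day 28, against -0.78, -0.22, -0.52, -0.23 and -0.30 at day 1. These groups did not overlap, as for 0.687% of all features. In the other 3 comparisons between 2 groups this held for 0 members, against 0.119% of features for TiO2 at day 1, 0.284% for TiO2 at day 28 and 0.374% between the days in TiO2 mice. Its difference was 0.30 ± 0.15 in controls (adjusted p = 1 in limma), and 0.25 ± 0.13 in TiO2 mice, where the days overlapped. Sqstm1 stood at 0.48, 0.27, 0.44 and 0.62 in control mice at day 28, against -0.41, 0.69, 0.21, 0.42 and 0.26 at day 1, a difference of 0.22 ± 0.22 in controls and 0.32 ± 0.19 in TiO2 mice. Without control day 1 replicate 1 the Sqstm1 difference in controls was 0.06.

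On the lower side in control mice were Scarb2, Npc2 and Map1lc3a. Scarb2 had 0.69, 0.62, 0.81 and 0.18 at day 28, against 1.83, 0.65, 0.83, 0.53 and 0.89 at day 1, so the days overlapped and 1 array of day 1 stood apart. The Scarb2 difference was -0.37 ± 0.24, and -0.15 without that array, control day 1 replicate 1. In TiO2 mice Scarb2 had 0.03, 0.44 and 0.71 as lowest, median and highest at day 28, against 0.58, 0.73 and 1.66 at day 1, a difference of -0.48 ± 0.21. Its second probe gave -0.02 in control and -0.10 in TiO2 mice. Npc2 had -1.29, -1.66 and -1.31 in the 3 controls with a value at day 28, against -0.53, -1.26, -1.31, -1.25 and -1.28 at day 1, a difference of -0.29 ± 0.18, or -0.14 without the same replicate. Map1lc3a, a relative of LC3B, had 0.25, -0.36, 0.16 and -0.17 at day 28, against 0.25, -0.11, 0.25, 0.26 and 0.41 at day 1, a difference of -0.24 ± 0.16, or -0.13 without control day 28 replicate 2. The days overlapped for both.

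In TiO2 mice between the days, 18 of 39 members were higher at day 28, against 51.3% of features. Of these 39, 3 were at an unadjusted p under 0.05, against 3.77% of features, and 0 passed the adjusted threshold (0.034% of features, or 0.108% with scan day in the model). Beside Ulk1 and Scarb2 this was Npc1, with 1.23, 1.33 and 1.79 at day 28, against 0.65, 1.05 and 1.36 at day 1, a difference of 0.41 ± 0.15 with an adjusted p of 1 in limma, and the days overlapped. In control mice Npc1 stood at 0.14 ± 0.18. Under the model with scan day 6 members were at an unadjusted p under 0.05, against 8.69% of features. The sign of the difference between days was the same in TiO2 and control mice for 25 of 39 members (64.1%), 7 higher and 18 lower at day 28, against 60.1% of all features.

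**Figure D3:**
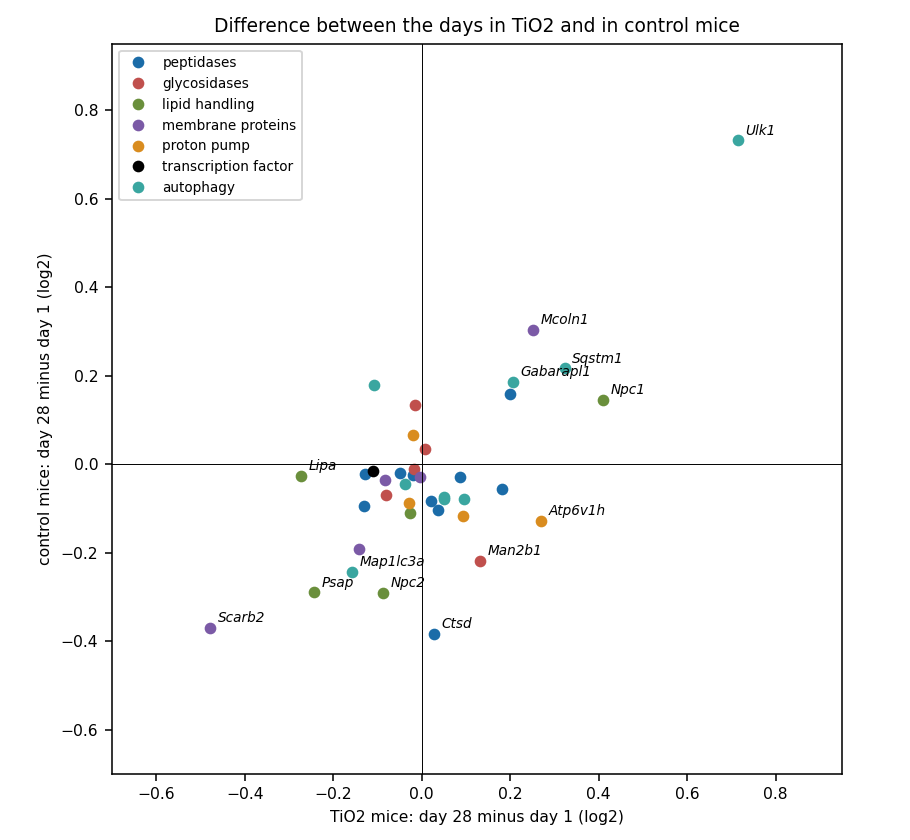
Difference between day 28 and day 1 in TiO2 mice (horizontal axis) and in control mice (vertical axis), both in log2 units, 1 point per gene coloured by role. Ulk1 lies at 0.71 and 0.73, away from the other points, and genes with a difference over 0.2 in either direction are named.

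**Figure D4:**
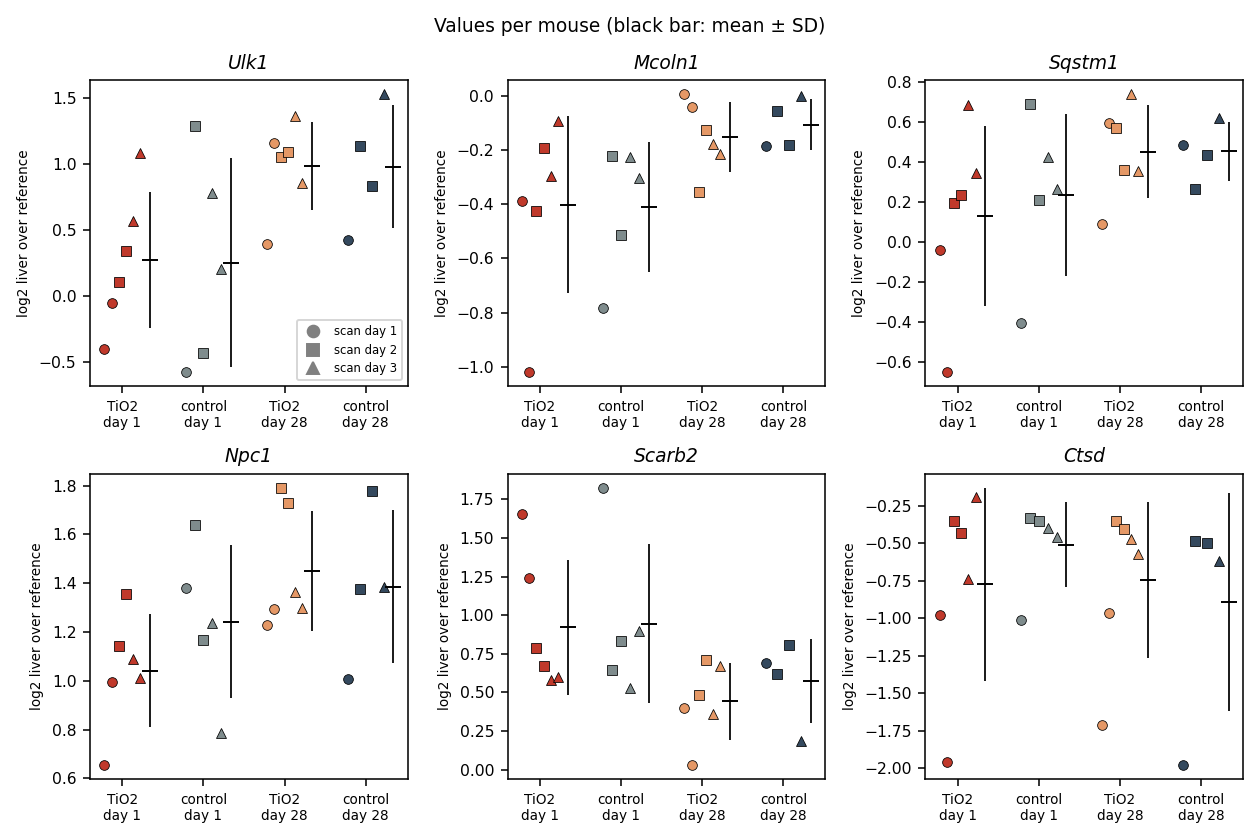
Log2 liver over reference for 6 genes, 1 point per mouse, with TiO2 left of control at each day, the point shape giving the scan day and the black bar the mean ± SD. Ctsd is lowest on arrays of scan day 1 in all groups, and Ulk1 lies higher at day 28 in both treatments.

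Scan day separated the values of several members more than any group did. Scan day held a median of 32.6% of a member's variance and the 4 groups 6.33%, against 35.7% and 8.74% over all features. These shares are not corrected for the number of scan days or groups, so the spread between mice alone also gives shares above 0. Scan day held over 50% in 12 members (30.8%), against 32.6% of all features. It held 82.8% for Man2b1, 82.3% for Ctsh, 78.4% for Atp6v1h, 74.3% for Ctsd and 73.2% for Atg5, and 1.58% for Ctsb. The mean of Man2b1 was -0.15, 1.06 and 0.82 on scan days 1, 2 and 3, and that of Ctsd -1.43, -0.40 and -0.49. The scan day means of 11 members lay over 0.5 apart, and scan day 1 held the lowest of the 3 means in 21 members and the highest in 17. The groups held more of the variance than scan day did in 5 of 39 members, against 3821 of 17624 features. Among the 5 were Ulk1 (35.0% against 24.4%), Mcoln1 (31.1% against 12.0%) and Scarb2 (29.3% against 16.8%).

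**Figure D5:**
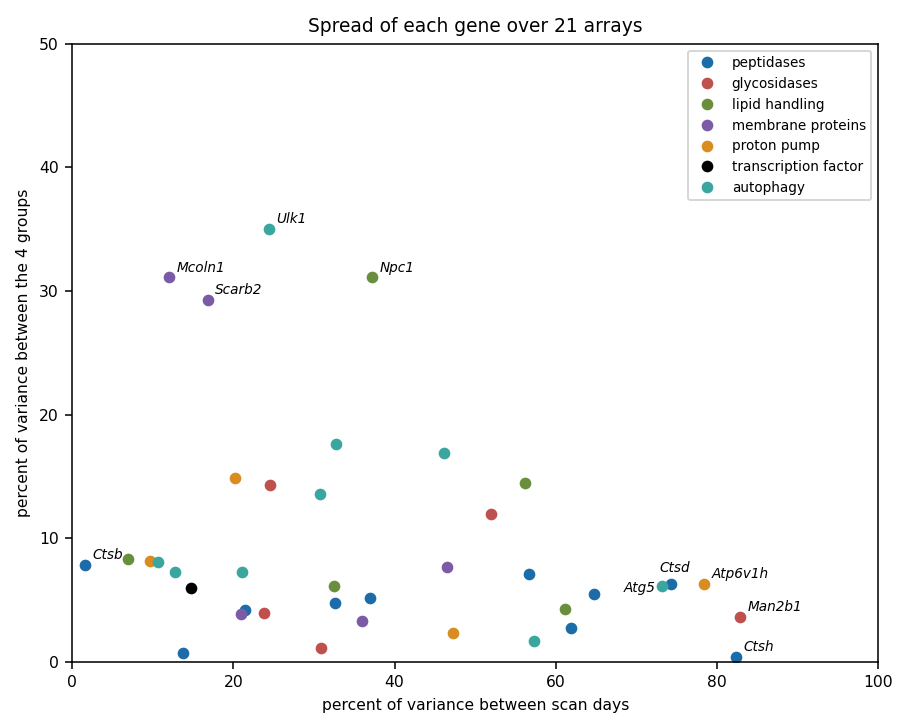
Percent of each gene's variance over 21 arrays that lies between scan days (horizontal axis) and between the 4 groups (vertical axis), 1 point per gene. Man2b1 and Ctsh lie far right at over 80%, and Ulk1, Mcoln1, Npc1 and Scarb2 lie highest.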

How the data were processed

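Each mouse's liver RNA (Cy5) was hybridised with universal reference RNA (Cy3). The deposited scanner files hold spot intensity without normalization, and a log10 LogRatio after background subtraction and dye normalization, per the file headers. These name Feature Extraction 10.7.3.1, whereas the submitters' processing notes name 9.5.3.1. The authors deposited a table of log2 values, whose scale and direction were taken from its match to the scanner ratios (correlations of 0.9957 to 0.9971); its column medians were -0.058 to -0.011, and its centring is not stated.

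Median intensities were corrected in limma 3.58.1 (R 4.3.3) by normexp with an offset of 50, then normalized by loess within arrays. The 103 to 502 spots per array that the software marked were given the array's median background for this step and then left out, a choice made after seeing the data. The median signal was used in place of the planned mean signal. Control spots were left out and saturated spots kept. The filter on dim probes asked for a liver signal above background on 50% or more of a group's arrays, in any group, and 21405 of 41174 probes passed. Symbols came from RefSeq accessions (GRCm38.p6) for 23374 probes. The brightest probe stood for a gene.

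Of 17624 features, 214 lack a value on at least 1 array. One limma model of the 4 group means over 21 arrays gave all comparisons, with Benjamini-Hochberg adjustment over all features and a threshold of 0.05; the script was tested on simulated data. The design text names 22 arrays, and 21 were analysed here. Replicate numbers follow deposition order. Precision is limited by the number of arrays. The genes named individually were the 3 with the smallest p in each direction in either TiO2 comparison and in controls between days, any that passed, and Lamp1, Ctsd, Ctsb, Tfeb, Sqstm1 and Map1lc3b; the others named serve as examples of their role, or were named after their values were seen. The members and lists were chosen with earlier results of these data known. One gene of the wider lists is not reported here by name.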

Additional observations from a re-analysis of the deposited data

Results flagged for a closer look

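Within groups of 4 to 6 mice, 17 of 155 combinations of gene and group held 1 mouse that stood apart from the others (the gap to the nearest, relative to the whole range, was past Dixon's critical value); chance gives about 1 in 20. Of these, 15 lay on arrays of scan day 1, and the part of scan day in them was not tested.

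TiO2 day 1 replicate 2 was lowest for Mcoln1 (-1.02) and highest for Neu1 (0.25). Control day 1 replicate 1 stood apart in 6 genes, being highest for Lamp1 (1.85), Scarb2 (1.83) and Npc2 (-0.53), and lowest for Ctsd (-1.01), Gabarap (-0.63) and Man2b1 (0.18).

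TiO2 day 28 replicate 1 stood apart in 4 genes, being highest for Lamp2 (3.36) and Tfeb (0.44) and lowest for Gabarapl1 (2.03) and Map1lc3b (-0.11). TiO2 day 28 replicate 3 was lowest for Npc2 (-1.71). Control day 28 replicate 1 was lowest for Ctsd (-1.98) and Man2b1 (-0.62) and highest for Ctsz (0.61), and control day 28 replicate 4 was lowest for Atg7 (0.0087).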

How the results depend on the processing

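No paired analysis was possible because replicate numbers follow deposition order and pair no mice. The TiO2 comparisons called 0 members under each of 39 settings at either day, with a smallest adjusted p of 0.958 at day 1 and 1 at day 28. Leaving out a mouse of a group outside a comparison changes its spread but not its difference. Without such settings, 28 remained beside the main one at day 1 and 27 at day 28. Gla, Ppt1, Tfeb and Atg7 had values in 38 of the 39 settings. Features passing between the days in TiO2 mice numbered 6, against 3 with an offset of 10, 1 with LogRatio, 2 with scaling between arrays, 19 with scan day as a block, 31 with slide as a random block, 14 with array weights, 3 with normexp on all spots, and 1, 0 and 0 without scan days 1, 2 and 3; leaving out 1 mouse gave 4 to 9. Over both treatments they numbered 16, against 111, 54, 72 and 6 with scan day, slide, weights and all spots, 5, 0 and 1 without the scan days, and 6 to 28 without 1 mouse; members passing numbered 1 with scan day (Ulk1, 0.76) and 0 otherwise. For TiO2 at day 1 features passing numbered 0, against 3 with slide, 1 with weights and 0 to 3 without 1 mouse (3 without TiO2 day 1 replicate 2). In controls between days they numbered 0, against 6 with weights and 0 to 1 without 1 mouse (1 without control day 1 replicate 4); for TiO2 over both days 0, against 1 with LogRatio and 0 to 1 without 1 mouse (1 without TiO2 day 1 replicate 2). Within scan day 1 the members' median was -0.15 for TiO2 at day 1 and -0.21 for controls between days, and with an offset of 10 their median over the reference was 0.35. Signs reversed with the liver channel alone for Atp6ap1 at day 1 (0.0043) and Neu1 (0.11) and Hexa (0.14) at day 28, with array weights for Ctsb at day 28 (-0.0246), without control day 1 replicate 1 for Atg7 at day 1 (-0.0191, against up to 0.2392 without another mouse), without scan day 1 for Atg7 at day 1 (-0.0046) and Hexa at day 28 (0.0904), and without scan day 2 for Lipa at day 1 (-0.0629); none of these passed a test. The causes were not tested. Normexp on all spots, leaving out a scan day, and the contrasts over both days or treatments were added after seeing the data. The liver channel alone gives no level over the reference, and the fit on only the groups compared cannot be made for the interaction, which uses all 4.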

Other observations

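Endothelial markers, 1 of several lists of cell type markers looked at, held 10 genes that were all tested. They lay mostly on different sides of 0 at the days. TiO2 minus control was above 0 in 1 of 10 at day 1 (median -0.12), against 47.8% of all features, and in 9 of 10 at day 28 (median 0.16), against 50.8%. With scan day in the model these counts were 3 and 9 of 10, and 1 of 10 was at an unadjusted p under 0.05 at day 28, against 3.1% of features. Tested as an interaction in limma, 0 of 10 passed the adjusted threshold. At an unadjusted p under 0.05 there were 0 of 10, against 0.76% of features, and with scan day in the model 1 of 10, against 2.89%. Pecam1 and Tek of this list were well above background on 8 and 7 of 21 arrays. Of 8 stellate cell markers, 3 were above 0 at day 1 and 5 at day 28.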
